A study of Sus scrofa with 16 samples.

Results

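The genes of the proteasome, the protease complex that degrades ubiquitin-tagged proteins, were followed in the liver of pigs fed 3 dietary fats. Members were all genes whose pig symbol starts with PSMA, PSMB, PSMC, PSMD, PSME or PSMG and a digit, except PSMB8 and PSMB9, and this rule used no measured value. It found 40 of the 25880 genes counted, 14857 of which carry a symbol. By their known place in the complex, 7 belong to the alpha ring, 7 to the beta ring, 6 to the ATPase ring, 2 to the non-ATPase base, 8 to the lid, 4 to the activators, 3 to the base assembly chaperones and 1 to the core assembly chaperones. PSMC3IP and PSME3IP1 match by name but are no subunits. They are counted among the 40 members, as the rule has it. PSMA6, PSMB5, PSMB6, PSMD2, PSMG1, PSMG2 and PSMG4 did not match a counted gene and were not analysed here. Liver RNA came from 16 crossbred pigs, the offspring of Polish Landrace x Polish Large White sows and Duroc x Pietrain boars, kept singly from about 60 to 118 kg of body weight. The diets had like energy and protein and differed in the fat, which was rapeseed oil for 5 pigs (group R, with 3 gilts), beef tallow for 5 pigs (group B, with 2 gilts) and coconut oil for 6 pigs (group C, with 3 gilts), and the rest were barrows. No group went without added fat, so each difference is between 2 fats. Each pig gave 1 library, made from the 3′ ends of mRNA.

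In the proteasome, a barrel of stacked alpha and beta rings holds the proteolytic sites on its inner face. A regulatory particle on its end binds tagged proteins, removes the ubiquitin in its lid and unfolds and threads the chain with its ATPase ring. Other caps, the activators, open the barrel without that particle, and dedicated chaperones assemble the rings. The transcription factor NFE2L1 raises the subunit genes together when proteasome activity is short, whereas the heat shock chaperones that refold proteins answer to HSF1, and those of the endoplasmic reticulum to the unfolded protein response.

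The libraries held 705669 to 1767671 reads on genes per pig (median 1018321.5), of which 1472 to 5105 fell on the members, or 0.209% to 0.342%. Levels are given as CPM, the read count scaled to a common library size with TMM factors over the 16 pigs, and differences as log2 fold changes of edgeR's quasi-likelihood test on the pigs of 2 diets, each with its standard error (SE) and the first diet as reference, Benjamini-Hochberg adjustment over all genes tested and a threshold of 0.05. Beef tallow pig 3 stood apart from the other 15 pigs. Over 28 members of at least 20 CPM on average, the SD of its log2 ratio to the median of the other pigs on its diet was 0.784, against 0.185 to 0.544 in the others, and over 4477 genes of that level it was 0.831, against 0.383 to 0.576. Its share of reads aligned to several places was 33.19%, against 19.33% to 22.85% in the other pigs on its diet. Coconut oil pig 3 had 38.07% and rapeseed oil pig 4 had 32.52%. A link between this share and the levels was not tested. The hepatocyte markers ALB, APOA1, TTR and FGB had reads in every pig, whereas SERPINA1 was at 0 in 12 of 16 pigs and reached at most 1.68 CPM. The 5 summed to 51510 CPM in beef tallow pig 3 and to 88510 to 176400 CPM in the others. In bulk tissue, fewer cells of a type and less RNA per cell cannot be told apart.

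Members of 1 ring differed widely in level. A 3′ library counts the end of each transcript, so counts were not divided by length, and a level also depends on how well the annotation covers that end, which was not tested. In the alpha ring, which gates the barrel, PSMA7 (ENSSSCG00000033332, chromosome 17 from 61566373 to 61571516) was the highest member at 458 ± 74.6 CPM (SD, n = 16), and PSMA1 was the lowest with reads at 3.83 ± 3.11 CPM. In the beta ring, which carries the proteolytic sites, PSMB1 (ENSSSCG00000027257, chromosome 1 from 23827 to 40033) stood at 295 ± 41.9 CPM and PSMB3 at 2.15 ± 1.65 CPM. PSMB10, the inducible counterpart of PSMB7 in the immunoproteasome, had 18.7 ± 6.15 CPM beside 88.3 ± 13.4 CPM for PSMB7 itself. The 6 ATPases lay closer together, from 25.6 ± 7.39 CPM for PSMC4 to 113 ± 30.4 CPM for PSMC5. In the base, the scaffold PSMD1 had 154 ± 27.8 CPM and the ubiquitin receptor PSMD4 had 10 ± 5.47 CPM. In the lid, levels ran from 4.98 ± 2.82 CPM for PSMD6 to 166 ± 37.7 CPM for PSMD3, with the deubiquitinase PSMD14 at 20.6 ± 5.56 CPM. Of the activators, PSME2 was the highest at 50.4 ± 13.5 CPM and its ring partner PSME1 the lowest at 3.58 ± 2.45 CPM. Of the base assembly chaperones, PSMD9 had 67.3 ± 9.35 CPM and PSMD5 3.87 ± 1.86 CPM. PSMG3, part of a core assembly chaperone, had 21.8 ± 4.47 CPM.

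**Figure D1:**
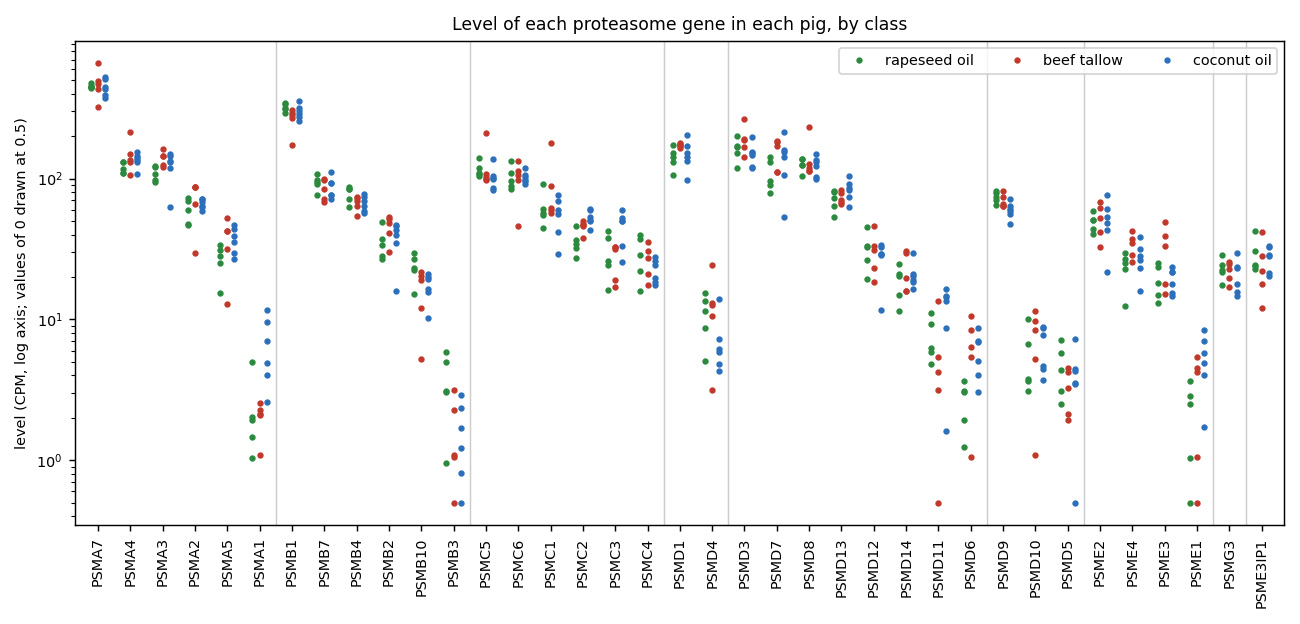
Level of each of the 37 members with reads, in CPM on a log axis, with 1 point per pig (green rapeseed oil, red beef tallow, blue coconut oil) and values of 0 drawn at 0.5; genes are grouped by class from the alpha ring at the left to the name matches at the right. The diets overlap for every member tested, while the levels of genes of 1 class range from below 5 CPM to over 100 CPM in both core rings and the lid.

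Members with few reads could not be tested. PSMA8, the alpha subunit of the testis, PSMB11, the beta subunit of the thymus, and PSMC3IP, a factor of meiotic recombination, had 0 reads in all 16 pigs, which allows a mean level of up to 0.165 CPM (3 counts of 18234951 reads, counting error only). PSMA1, PSMB3, PSMD5, PSMD6, PSMD10 and PSME1 had reads but failed the filter on low counts in every pair of diets. For PSMA1, the counts were 1 to 4 reads per pig in groups R and B and 3 to 17 reads in group C, so the ranges of reads overlapped. As levels, these were 1.03 to 5.00 CPM, 1.09 to 2.56 CPM and 2.596 to 11.6 CPM in groups R, B and C, and those of groups B and C did not overlap. That left 31 members tested in at least 1 pair, of which PSMD11 was not tested between groups R and B nor PSMD4 between groups R and C.

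Summed over all 40 members, the proteasome genes stood at 2604 ± 103 CPM in group R (SD, n = 5), 2815 ± 275 CPM in group B (n = 5) and 2640 ± 331 CPM in group C (n = 6). The sums ran from 2500 to 2741 CPM in group R, from 2523 to 3262 CPM in group B and from 2134 to 3155 CPM in group C, so the 3 diets overlapped. Without beef tallow pig 3, the mean of group B was 2704 ± 134 CPM (n = 4). The mean of group B was 8.13% above that of group R, or 3.84% without that pig, and the mean of group C was 1.39% above that of group R.

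The classes of the complex overlapped between the diets in the same way, with a few edges near separation. The alpha ring summed to 735 to 814 CPM in group R, 697 to 1047 CPM in group B and 657 to 922 CPM in group C. The beta ring summed to 497 to 596 CPM in group R, 388 to 517 CPM in group B and 438 to 592 CPM in group C. Its lowest sum was that of beef tallow pig 3, whose alpha ring sum was the highest. The ATPase ring summed to 324 to 397 CPM, 369 to 534 CPM and 336 to 432 CPM in groups R, B and C. The lid summed to 468 to 585 CPM, 553 to 817 CPM and 391 to 715 CPM in the same order. The activators summed to 73.8 to 109 CPM in group R and 108 to 136 CPM in group B, where the highest pig of group R lay just above the 2 lowest of group B, and to 65.2 to 141 CPM in group C. These sums are descriptions without a test.

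**Figure D2:**
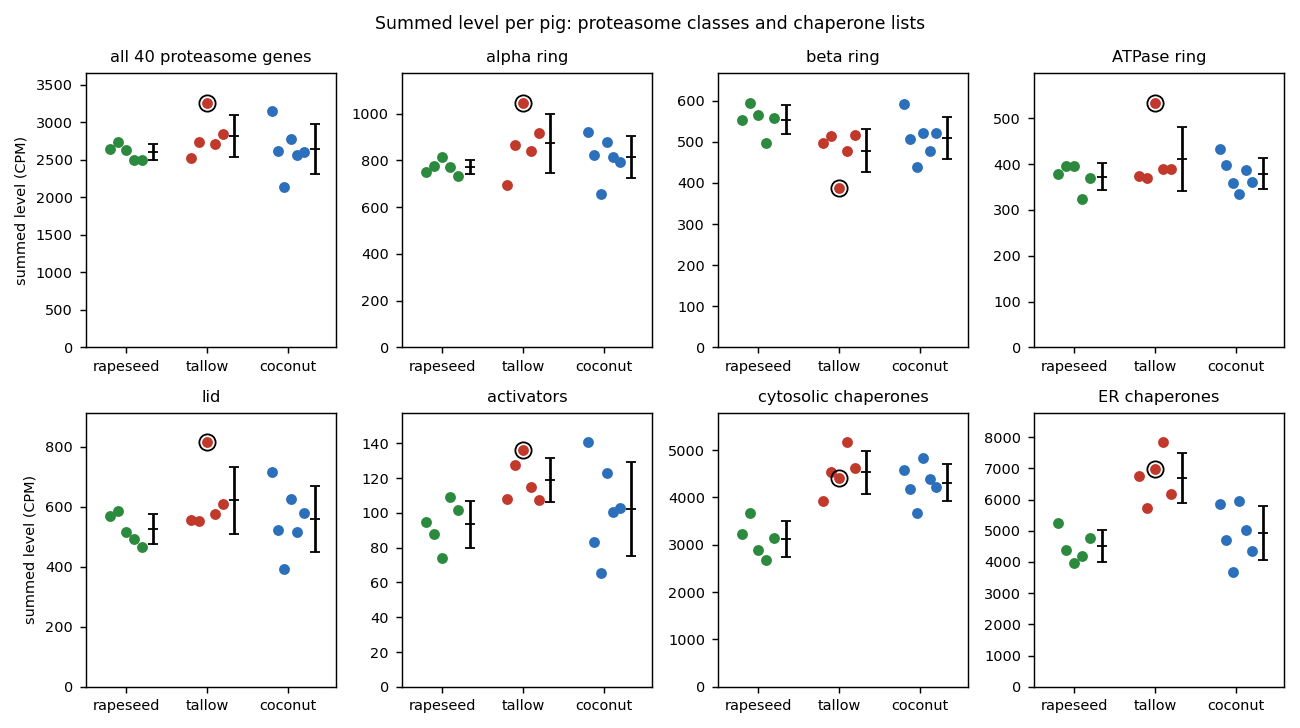
Summed level per pig in CPM (linear axis from 0) of all proteasome genes, of 5 classes and of 2 chaperone lists; points are pigs, black bars the mean and SD of a diet, and the ringed point beef tallow pig 3. The proteasome panels overlap between diets, while every group R pig has a lower cytosolic chaperone sum (at most 3676 CPM) than every pig of the other diets (at least 3682 CPM). That list was chosen with its response in these pigs known, and its separation was not tested. The called genes HSPA8 and BAG3 held 192 and 172 CPM of the 3676 CPM (rapeseed oil pig 2). They held 262 and 367 CPM of the 3682 CPM (coconut oil pig 3).

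No proteasome gene passed the test between rapeseed oil and beef tallow. Of the 30 members tested in R vs. B, 0 passed the edgeR adjusted p, where 1.11% of all genes tested did, and DESeq2 also called 0, with 4 at an unadjusted p below 0.05 and an adjusted p for 29 of the 37 members with reads. Over all genes with an adjusted p, DESeq2 called 188 of 5808. The smallest edgeR adjusted p of a member was 0.296. At an unadjusted p below 0.05 there were 3 members, all higher in group B, beside 15% of all genes. For no tested member did the 2 groups fail to overlap, beside 4.59% of all genes. Of the log2 fold changes, 19 were above 0 and 11 below, with a median of 0.14, beside 0.01 over all 6318 genes tested. Without beef tallow pig 3, there were 15 above and 15 below, the median was 0.0023 and 0 members were called, beside 2.32% of all genes. In that fit PSMA2, PSMA3, PSMA5, PSMB2 and PSME4 had an unadjusted p below 0.05, all 5 higher in group B, beside 17.5% of all genes. With all pigs but without PSME3IP1, 19 values were above and 10 below 0, with a median of 0.17. The 95% confidence interval of the fold change lay within a doubling either way for 25 of the 30 members and within 1.5-fold for 9.

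PSME3 (ENSSSCG00000017385, chromosome 12 from 20028112 to 20035865), the nuclear activator, had the smallest p in R vs. B. Its levels were 13.1, 23.7, 15.01, 25.3 and 18.3 CPM in group R and 33.2, 17.97, 49.2, 39.0 and 15.2 CPM in group B. Pigs 1, 3 and 4 of group B were above all of group R, and the other two lay within its range. The log2 fold change was 0.73 (SE 0.32, 95% interval 0.05 to 1.41, edgeR adjusted p = 0.296), and 0.48 without beef tallow pig 3 (edgeR adjusted p = 0.443). PSME4, the activator known from spermatids and DNA repair, had a log2 fold change of 0.49 (SE 0.24, edgeR adjusted p = 0.356). PSME2, the interferon-inducible one, had 0.06 (SE 0.22, edgeR adjusted p = 0.929).

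The lid subunit PSMD7, which pairs with the deubiquitinase PSMD14, stood at 131, 95.98, 90.1, 79.0 and 143 CPM in group R and at 112, 169, 182, 112 and 184 CPM in group B. Pigs 1 and 4 of group B lay inside the range of group R and the other 3 above it. The log2 fold change was 0.49 (SE 0.22, edgeR adjusted p = 0.306).

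In the alpha ring, 5 of 5 tested log2 fold changes were above 0 in R vs. B, with a median of 0.30, and 4 of 5 without beef tallow pig 3, with a median of 0.40. The activators had 3 of 3 above 0 with a median of 0.49, and 2 of 3 without that pig (0.48), and both tested genes of the non-ATPase base were above 0, or 1 without it. PSMA3 stood at 98.5, 94.95, 121, 124 and 108 CPM in group R and at 126, 146, 121, 145 and 161 CPM in group B. Only beef tallow pig 3 lay within the range of group R. The log2 fold change was 0.35 (SE 0.16, 95% interval 0.01 to 0.70, edgeR adjusted p = 0.322). PSMA7, with the most reads, had 0.07 (95% interval -0.32 to 0.46), or -0.09 without that pig. In the beta ring, 4 of 5 values were below 0, with a median of -0.22. PSMB10 had -0.59 (SE 0.32, edgeR adjusted p = 0.399) and PSMB1 had -0.27 (SE 0.17, edgeR adjusted p = 0.476), or -0.15 without beef tallow pig 3. Of the 6 ATPases, 3 were above and 3 below 0, and PSMC2 had 0.38 (SE 0.19, edgeR adjusted p = 0.371). In the lid, 5 of 6 values were above 0, with a median of 0.21, or 0.06 without beef tallow pig 3.

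The same held between rapeseed oil and coconut oil. Of the 30 members tested in R vs. C, 0 passed the edgeR adjusted p, beside 0.138% of all genes, and DESeq2 also called 0, with 4 at an unadjusted p below 0.05 and an adjusted p for 22 of the 37 members with reads. Over all genes with an adjusted p, DESeq2 called 93 of 3565. The smallest edgeR adjusted p of a member was 0.182. At an unadjusted p below 0.05 there were 3 members, all higher in group C, beside 13% of all genes. For no tested member did the groups fail to overlap, beside 1.5% of all genes. The values split into 14 above and 16 below 0, with a median of -0.01, beside 0.00 over all 6528 genes tested. The interval of the fold change lay within a doubling for 28 of the 30 members and within 1.5-fold for 15, the tightest of the 3 pairs.

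The 3 members were 2 ATPases and 1 alpha subunit. PSMC2 (ENSSSCG00000015424, chromosome 9 from 103362684 to 103376048), an unfolding ATPase of the ring, stood at 36.5, 32.0, 46.3, 27.3 and 34.6 CPM in group R. In group C its levels ran from 43.3 to 60.9 CPM, with only the lowest pig of group C below the highest of group R. The log2 fold change was 0.58 (SE 0.18, 95% interval 0.20 to 0.95, edgeR adjusted p = 0.182). Beside it, PSMC3 (ENSSSCG00000013239, chromosome 2 from 15185482 to 15191189) had 0.62 (SE 0.25, edgeR adjusted p = 0.292), and the other 4 ATPases had values below 0, down to -0.36 for PSMC4 (edgeR adjusted p = 0.573). The alpha subunit PSMA5 had 0.49 (SE 0.22, edgeR adjusted p = 0.364). At the lower end were the inducible beta subunit PSMB10 at -0.44 (SE 0.23, edgeR adjusted p = 0.433) and the assembly chaperone PSMD9 at -0.30 (SE 0.15, edgeR adjusted p = 0.405). The alpha ring had 4 of 5 values above 0 (median 0.18) and the beta ring 1 of 5 (median -0.11). R vs. B and R vs. C share the pigs of group R, so their values for a class are not independent of each other.

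Between the animal fat and coconut oil, no proteasome gene passed the test. Of the 31 members tested in B vs. C, 0 passed the edgeR adjusted p, beside 0.0587% of all genes, and DESeq2 also called 0, with 4 at an unadjusted p below 0.05 and an adjusted p for 16 of the 37 members with reads. Over all genes with an adjusted p, DESeq2 called 53 of 2156. The smallest edgeR adjusted p of a member was 0.257. At an unadjusted p below 0.05 there were 4 members, 1 higher and 3 lower in group C, beside 11.5% of all genes. Without beef tallow pig 3, 0 passed the edgeR adjusted p, beside 0.0885% of all genes, and 1 had an unadjusted p below 0.05, PSMC3, beside 10.3% of all genes. For no tested member did the groups fail to overlap, beside 1.37% of all genes. The levels of PSMA1, which was not tested, did not overlap (1.09 to 2.56 CPM in group B, 2.596 to 11.6 CPM in group C). The values split into 11 above and 20 below 0 (14 and 17 without that pig), with a median of -0.09 (-0.04 without it), beside 0.00 over all 6812 genes tested. The interval lay within a doubling for 26 of the 31 members and within 1.5-fold for 13.

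PSMC3 was the 1 that was higher in group C. Its levels were 32.4, 31.7, 19.2, 16.9 and 32.7 CPM in group B and ran from 25.7 to 59.7 CPM in group C, with a median of 49.9 CPM. A single pig of group C lay within the range of group B below its highest value. The log2 fold change was 0.80 (SE 0.24, 95% interval 0.28 to 1.31, edgeR adjusted p = 0.257), and 0.70 without beef tallow pig 3 (edgeR adjusted p = 0.342).

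The 3 members lower in group C were PSME3, PSMC1 and PSMD4. PSME3 had a log2 fold change of -0.73 (SE 0.29, edgeR adjusted p = 0.359), or -0.49 without beef tallow pig 3. The ATPase PSMC1 had -0.70 (SE 0.31, edgeR adjusted p = 0.411), with 179 CPM in beef tallow pig 3 beside 56.5 to 89.2 CPM in the other 4 pigs of group B. Without that pig it had -0.26 (edgeR adjusted p = 0.733). The ubiquitin receptor PSMD4 had -0.92 (SE 0.42, edgeR adjusted p = 0.423), at a mean of 12.7 ± 7.58 CPM in group B and 7.04 ± 3.49 CPM in group C. Its highest value in group B was also that of beef tallow pig 3, without which it had -0.50 (edgeR adjusted p = 0.7). The lid subunit PSMD11 had the widest interval, at 1.10 (95% interval -0.17 to 2.37), with 0 reads in beef tallow pig 3 and up to 26 reads in group C, and it had 0.70 without that pig.

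**Figure D3:**
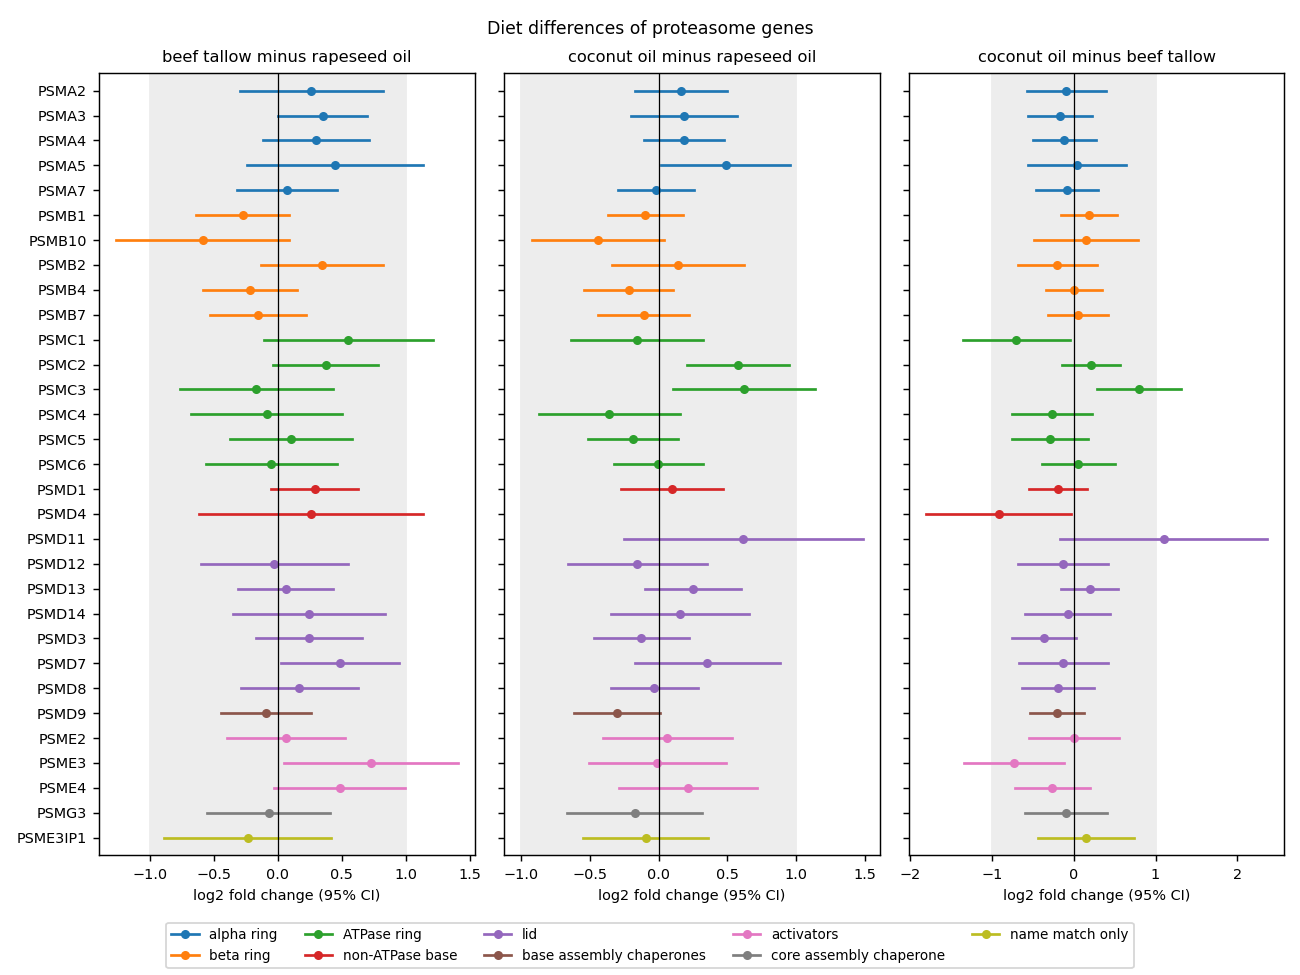
Log2 fold change (points) and 95% confidence interval (lines) of each member tested in the 3 pairs of diets, coloured by class, with the shaded band marking a change of less than a doubling either way. Most intervals cross 0 and lie within the band; those of PSMC2 (0.20 to 0.95 for coconut oil minus rapeseed oil) and PSMC3 (0.28 to 1.31 for coconut oil minus beef tallow) lie above 0 before adjustment over all genes.

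Within a diet, the spread of the members was below that of all genes of at least 20 CPM in every pig but coconut oil pig 3. There the SD of the log2 ratio was 0.544 over members and 0.528 over all genes. The members did not move as 1 block in beef tallow pig 3. In that pig, the log2 ratio to the median of the other pigs on its diet ran from -1.65 to 1.53 over the 28 members of at least 20 CPM. The ATPases PSMC1 and PSMC5 were at 1.53 and 1.06 while the ATPase PSMC6 was at -1.23. The alpha subunits PSMA4 and PSMA7 were at 0.69 and 0.57 while PSMA2 and PSMA5 were at -1.53 and -1.65. PSMA5 had 20 reads there and PSMA7 had 1041, the highest count of any member in any pig. Coconut oil pig 3, the library with the fewest reads, had 5 members below -1, namely PSMA3, PSMB2, PSMD7, PSMD12 and PSME2, and its median ratio was -0.28.

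With the diet means removed, the median Pearson correlation over 378 pairs of members was 0.0928 across the 16 pigs, and 0.144 without beef tallow pig 3, beside 0.00805 over pairs of all 4477 genes of that level. Pairs within a class had a median of 0.135 and pairs across classes of 0.146 (15 pigs). The pairs with the highest values were PSMA7 with PSME3IP1 (0.869), which is no subunit, and PSMD7 with PSME2 (0.843). These correlations share libraries and depth, rest on few reads for many members, and are given as a description.

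**Figure D4:**
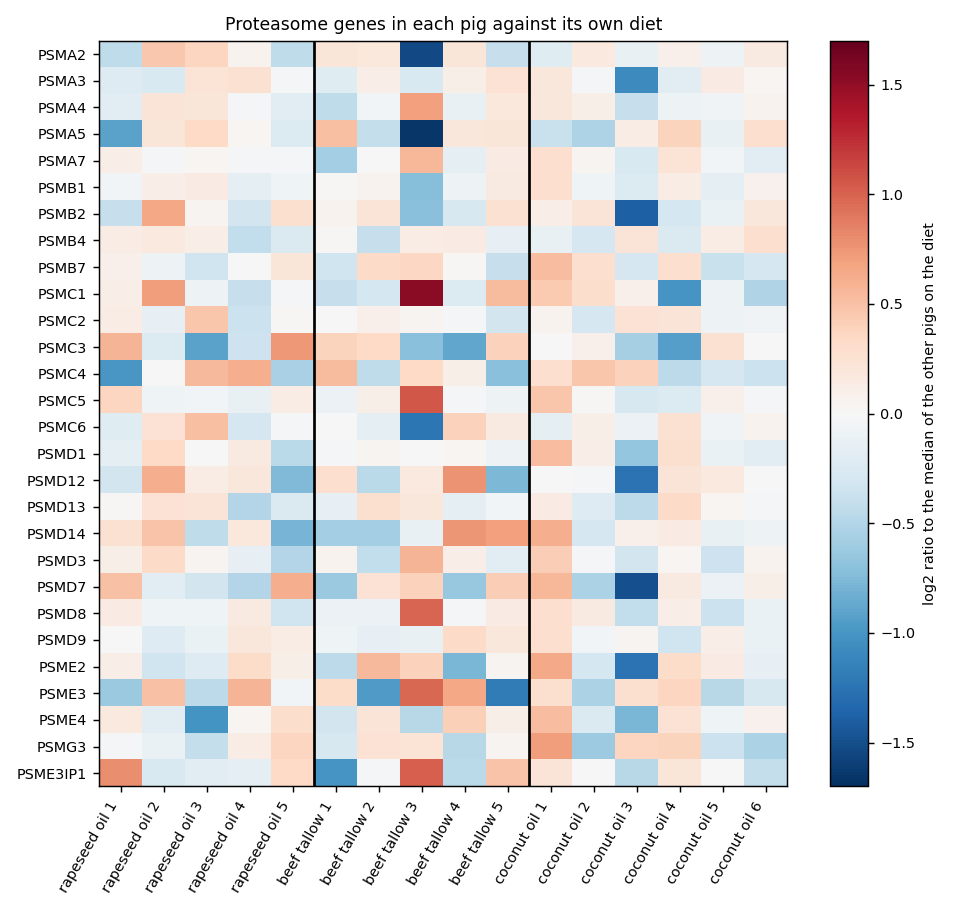
Log2 ratio of each member of at least 20 CPM (rows, by class) in each pig (columns) to the median of the other pigs on the same diet; red is higher and blue lower, and black lines part the diets. Beef tallow pig 3 holds values from -1.65 to 1.53 within the same classes, and coconut oil pig 3 holds 5 members below -1.

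Among the partners of the proteasome, 2 zinc finger proteins rose in R vs. B. Of 21 partner genes tested there, 14 were above 0 and these 2 passed, with a median of 0.12, beside 1.11% of all genes that passed. ZFAND2A, a stress-induced zinc finger protein that binds the regulatory particle, stood at 19.7, 17.5, 15.01, 28.4 and 7.68 CPM in group R and at 73.9, 24.3, 29.4, 106 and 78.4 CPM in group B, a log2 fold change of 1.799 (SE 0.40, edgeR adjusted p = 0.0426). Its relative ZFAND5, which stimulates proteasomal degradation, had 106 ± 36.5 CPM in group R and 262 ± 106 CPM in group B, a log2 fold change of 1.30 (SE 0.28, edgeR adjusted p = 0.0394). The ranges of both genes overlapped by 1 pig of group B. Each call was lost in 7 of the 10 fits that left out a pig (edgeR adjusted p of 0.0138 to 0.116 and of 0.0213 to 0.101), among them without rapeseed oil pigs 1, 2, 3 or 5. In R vs. C their values were 1.19 and 0.83 (both edgeR adjusted p = 0.104), which did not pass there but did with DESeq2, and whether the pairs differ was not tested.

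None of the other partners was called by edgeR or DESeq2 in any pair. POMP, the chaperone of barrel maturation, stood at 149 ± 26.9, 156 ± 40.9 and 151 ± 17.2 CPM in groups R, B and C, with log2 fold changes of 0.07 (R vs. B), 0.02 (R vs. C) and -0.04 (B vs. C). NFE2L1, the transcription factor of the subunit genes, had 282 ± 93.1, 280 ± 35.7 and 286 ± 76.7 CPM, and -0.01, 0.02 and 0.04 in the same pairs (95% interval -0.46 to 0.44 in R vs. B). The inhibitor PSMF1 had 25.6 ± 5.93, 22.2 ± 4.28 and 26.8 ± 4.72 CPM, and -0.21, 0.07 and 0.27. Further from 0 were MIDN, which carries proteins to the proteasome without ubiquitin, at 0.52, -0.31 and -0.82 (edgeR adjusted p = 0.248, 0.498 and 0.208), and UBA1, the ubiquitin-activating enzyme, at -0.06, -0.76 and -0.71 (edgeR adjusted p = 0.966, 0.431 and 0.483). The shuttle RAD23B had -0.39 in R vs. B (edgeR adjusted p = 0.245). ADRM1, a ubiquitin receptor of the base, had 0 reads in all pigs, and SEM1 did not match a counted gene. In R vs. C and B vs. C, 0 of 20 and 0 of 21 partners passed the edgeR adjusted p. At an unadjusted p below 0.05 there were 3 and 2, beside 13% and 11.5% of all genes. DESeq2 called ZFAND2A and ZFAND5 in R vs. C and 0 partners in B vs. C, beside 93 of 3565 and 53 of 2156 genes with an adjusted p.

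Several chaperone genes passed the test, 2 cytosolic and 3 of the endoplasmic reticulum in R vs. B and 2 cytosolic in R vs. C by edgeR. Of all genes tested, edgeR called 1.11% and 0.138% in these pairs. Over all genes with an adjusted p, DESeq2 called 188 of 5808 in R vs. B, 93 of 3565 in R vs. C and 53 of 2156 in B vs. C. DESeq2 called these chaperones and also CACYBP, HSPH1 and DNAJB9 in R vs. B. In R vs. C it added DNAJA1 and HSPA5, both higher, and PDIA3, which was lower in group C. In B vs. C it called HSPA5, HYOU1, MANF and PDIA3, all lower in group C. The chaperone lists were chosen with their response in these pigs known. HSPA8, the constitutive cytosolic chaperone of the Hsp70 family, stood at 155, 192, 181, 145 and 111 CPM in group R and at 399, 406, 283, 478 and 476 CPM in group B, and it ran from 262 to 433 CPM in group C. Every pig of groups B and C was above every pig of group R. The log2 fold change was 1.38 in R vs. B (SE 0.19, edgeR adjusted p = 0.00517) and 1.14 in R vs. C (SE 0.17, edgeR adjusted p = 0.0115). BAG3, a partner of Hsp70 in chaperone-assisted autophagy, rose by 1.79 (SE 0.31, edgeR adjusted p = 0.0148) and 1.496 (SE 0.20, edgeR adjusted p = 0.00266). In R vs. B, beef tallow pig 3 at 226 CPM lay just below the highest pig of group R at 228 CPM. HSPA8 was called in all 10 and 11 fits that left out a pig, and BAG3 in all 11 for R vs. C, but its call in R vs. B was lost in 3 of 10, without rapeseed oil pigs 1, 3 or 5 (edgeR adjusted p up to 0.0714).

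Of all genes tested, 15% in R vs. B, 13% in R vs. C and 11.5% in B vs. C had an unadjusted edgeR p below 0.05. Over the 21 cytosolic chaperones tested, 19 values were above 0 in R vs. B (2 called, 7 at an unadjusted p below 0.05, median 0.40) and 17 in R vs. C (2 called, 9 unadjusted, median 0.22). Their summed level was 3124 ± 381 CPM in group R, 4532 ± 451 CPM in group B and 4314 ± 393 CPM in group C. In B vs. C, 7 of 21 values were above 0 and 0 passed in edgeR or DESeq2 (3 unadjusted in edgeR, median -0.22). The TRiC chaperonin, a ring like the proteasome whose members fold actin and tubulin, had 6 of 6 values above 0 in R vs. B (median 0.29) and 5 of 6 in R vs. C (median 0.23), with 0 called by edgeR or DESeq2 and 1 and 2 at an unadjusted p below 0.05.

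The 14 chaperones of the endoplasmic reticulum summed to 3972 to 5247 CPM in group R, 5721 to 7846 CPM in group B and 3692 to 5947 CPM in group C. The sums of groups R and B did not overlap, for a list chosen with its response known and without a test. HSPA5 alone held 725 CPM of the highest sum of group R (pig 1) and 1201 CPM of the lowest of group B (pig 2). HSPA5, the reticulum's Hsp70 and sensor of unfolded proteins, stood at 558 ± 98.5 CPM in group R, 1631 ± 323 CPM in group B and 947 ± 283 CPM in group C. It rose by 1.54 in R vs. B (SE 0.19, edgeR adjusted p = 0.00104), without overlap between the groups. HYOU1, its exchange factor, rose by 1.23 (SE 0.23, edgeR adjusted p = 0.0222) and MANF, a secreted stress protein, by 1.03 (SE 0.23, edgeR adjusted p = 0.0426). With a pig left out, HSPA5 was called in all 10 fits, while the call was lost in 4 for HYOU1 (without rapeseed oil pigs 1, 3 or 5 or beef tallow pig 4) and in 7 for MANF, with edgeR adjusted p up to 0.0807 and 0.127. Of all genes tested, edgeR called 1.11% in R vs. B, 0.138% in R vs. C and 0.0587% in B vs. C. At an unadjusted p below 0.05 these shares were 15%, 13% and 11.5%. All 14 chaperone values were above 0 in R vs. B (3 called, 7 unadjusted, median 0.57), 10 of 14 in R vs. C (0 called, 3 unadjusted, median 0.16) and 2 of 14 in B vs. C (0 called, 7 unadjusted, median -0.44). DESeq2 called HSPA5, HYOU1, MANF and PDIA3 there, all 4 with negative values, and in R vs. C it called HSPA5 higher and PDIA3 lower. Over all genes with an adjusted p, DESeq2 called 53 of 2156 in B vs. C and 93 of 3565 in R vs. C. Of the genes that send reticulum proteins to the proteasome, 0 of 11 were called by edgeR in each pair with all pigs. At an unadjusted p below 0.05 there were 4, 2 and 2, with medians of 0.05, -0.18 and -0.29, and DESeq2 called SYVN1 lower in R vs. C. Without beef tallow pig 3, edgeR called SELENOS higher in R vs. B (edgeR adjusted p = 0.0308), beside 2.32% of all genes.

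**Figure D5:**
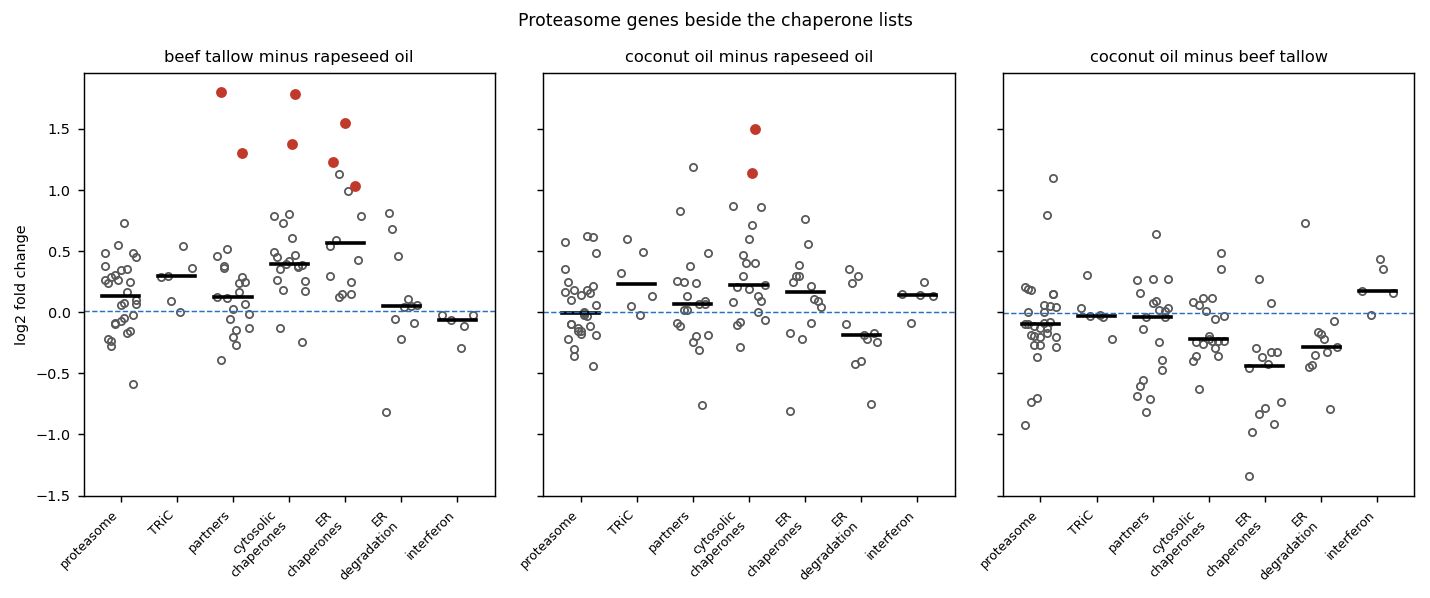
Log2 fold changes of the proteasome genes and 6 other lists in the 3 pairs of diets; each point is a gene, red filled points passed the edgeR adjusted p of 0.05, black bars are list medians and the dashed line is the median of all genes tested. The proteasome medians are 0.14, -0.01 and -0.09, while the cytosolic chaperone medians are 0.40, 0.22 and -0.22.

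Markers of other cells and states were set beside these values. The interferon list, whose genes go with the inducible subunits, had 0 of 5 values above 0 in R vs. B (median -0.06), 4 of 5 in R vs. C (median 0.14) and 4 of 5 in B vs. C (median 0.18), with 0 called by edgeR or DESeq2 and 0 at an unadjusted p below 0.05. Coconut oil pig 1 stood apart on that list, at 603 CPM beside 230.5 to 294 CPM in the other 5 pigs of group C, with 99.8 CPM of ISG15 beside 1.23 to 8.7 CPM. It also had the highest summed proteasome level and the highest PSME2 level of group C (3155 and 76.5 CPM). Its PSMB10 level of 19.3 CPM and PSME1 level of 4.03 CPM lay within the ranges of the other 5 pigs (10.15 to 20.9 CPM and 1.73 to 8.40 CPM). A link between the list and these levels was not tested. Among the cell type markers, the macrophage gene CD163 rose by 0.79 (edgeR adjusted p = 0.0414) and the sinusoidal endothelial gene LYVE1 by 0.88 (edgeR adjusted p = 0.0495) in R vs. B, and TTR of hepatocytes fell by 0.78 (edgeR adjusted p = 0.0426). Each of these 3 calls was lost in 8 of 10 fits that left out a pig. Of the tested hepatocyte markers 2 were above and 2 below 0 there (APOA1 0.04, FGB 0.25, ALB -0.29), and of the macrophage markers 6 were above and 1 below, MARCO at -0.55. Without beef tallow pig 3, 1 hepatocyte marker was above and 3 below. The macrophage markers were then 4 above and 3 below (median 0.08, beside 0.33 with all pigs). In R vs. C and B vs. C edgeR called no marker. In B vs. C, 4 of 7 macrophage markers were lower at an unadjusted p below 0.05 (median -0.49), beside 11.5% of all genes. Without beef tallow pig 3, these were 2 of 7 (median -0.37), beside 10.3% of all genes. With all pigs, DESeq2 called C1QA lower in R vs. C and in B vs. C, LYVE1 higher in R vs. C and TTR higher in B vs. C. These stand beside 93 of 3565 genes with an adjusted p in R vs. C and 53 of 2156 in B vs. C. Summed over the list, 8 macrophage markers stood at 599 to 1154 CPM, 844 to 1653 CPM (to 1146 CPM without beef tallow pig 3) and 606 to 875 CPM in groups R, B and C. The 4 endothelial markers stood at 203 to 330 CPM, 316 to 369 CPM and 269 to 362 CPM in the same order. The 7 lymphocyte markers (85.4 to 205 CPM), the 4 stellate cell or fibroblast markers (204 to 672 CPM) and the 3 bile duct markers (1.25 to 19.2 CPM) held no gene called by edgeR in any pair. No marker was at 0 in all pigs. The part of these cells in the chaperone and proteasome values was not tested.

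Between the sexes, with the diets as a term, 0 of 30 members passed the edgeR adjusted p, beside 0.0786% of all genes, and 2 had an unadjusted p below 0.05, beside 4.9% of all genes. These were the ATPases PSMC1 (78.0 ± 43.3 CPM in 8 gilts, 57.9 ± 17.9 CPM in 8 barrows) and PSMC6 (89.9 ± 19.6 and 113 ± 14.7 CPM), both at an edgeR adjusted p of 0.914. Beef tallow pig 3 holds the extreme value of both genes in its diet. In edgeR's test of the interaction of diet and sex, 0 members were called in each pair of diets, as were 0% of all genes. At an unadjusted p below 0.05 there were 1, 0 and 0 members, beside 3.96%, 3.98% and 3.52% of all genes, with the pairs in the order used above.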

How the data were processed

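Liver libraries (QuantSeq 3′ FWD) of 16 pigs were analysed. The authors checked reads with FastQC 11.8, trimmed with FLEXBAR 3.5.0, aligned to Sus scrofa 11.1 by TopHat 2.1.1 and counted per gene by HTSeq-count 0.11.1 on Ensembl annotation 96. The deposited counts are whole numbers and not normalized. Reads aligned to several places (15.4% to 38.1% per pig) were counted on no gene, which can lower genes with near copies. The 5 tallies of unassigned reads were left out. Groups came from the sample titles. No 2 libraries were identical.

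For each pair of diets, its pigs were fitted alone, without covariates, with edgeR 4.0.16 in R 4.3.3 (TMM, filterByExpr with a minimum count of 10 and total of 15, quasi-likelihood F-test, Benjamini-Hochberg over all genes tested, threshold 0.05). Standard errors are the size of the log2 fold change over the square root of F, and the 95% intervals use the t quantile. Log2 levels used CPM plus 1. Sex was fitted over all pigs with diet as a term. Scripts were tested on simulated data. Symbols were matched to the counted genes by Ensembl gene ID. Positions are those of RefSeq's table of the same assembly, matched by symbol, which gave no position for PSME3IP1.

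Members, classes, lists and tests were chosen with earlier results of these data known. Named members are the 5 smallest p in each pair, the highest and lowest of each class and those without a test. PSMA2, PSMA4, PSMB2, PSMB7, PSMC6, PSMD8, PSMD11, PSMD12 and PSMD14 were named after their values were seen. Alternatives were DESeq2 1.42.0, RLE, 2 other filters, all 16 pigs in 1 fit, the replicate number as a block, a sex covariate, and leaving out each pig.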

Additional observations from a re-analysis of the deposited data

Results flagged for a closer look

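In 132 groups of pigs (25 named members and 19 summed lists in 3 diets), 11 held a pig whose gap to the nearest other pig took an unusually large part of the range of its diet, by Dixon's criterion, which flags about 1 in 20 groups by chance. Beef tallow pig 3 made 5 of the 11. It had 173 CPM of PSMB1 beside 271 to 308 CPM in the other 4 pigs of its diet. It had 179 CPM of PSMC1 beside 56.5 to 89.2 CPM, and 212 CPM of PSMC5 beside 98.0 to 108 CPM. Its ATPase ring summed to 534 CPM beside 369 to 390 CPM, and its lid to 817 CPM beside 553 to 608 CPM.

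The other 6 were single values of other pigs. Rapeseed oil pig 3 had 5.00 CPM of PSMA1, or 4 reads, beside 1.03 to 2.03 CPM. Coconut oil pig 3 had 62.3 CPM of PSMA3 beside 118 to 150 CPM. Beef tallow pig 5 had 38.1 CPM of PSMC2 beside 46.4 to 49.7 CPM. Coconut oil pig 2 had 13.9 CPM of PSMD4 beside 4.31 to 7.25 CPM. Coconut oil pig 1 had a summed interferon list of 603 CPM beside 230.5 to 294 CPM. Beef tallow pig 5 had a summed endothelial list of 316 CPM beside 354 to 369 CPM.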

How the results depend on the processing

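No proteasome gene was called in any of the 17, 18 and 18 settings run for group B against R, C against R and C against B. Few genes of any kind were called in these settings. By share, the calls over all genes ran from 9 of 6437 to 188 of 5808 in R vs. B. They ran from 3 of 6825 to 93 of 3565 in R vs. C and from 4 of 7080 to 53 of 2156 in B vs. C. In the fits that left out a pig, 1 to 5 members had an unadjusted p below 0.05. Without beef tallow pig 3 these were 5 in R vs. B and 1 in B vs. C, beside 17.5% and 10.3% of all genes. For the other fits that left out a pig and for DESeq2, the share of all genes at an unadjusted p below 0.05 is not given here. Of the 40 members, 9 failed the filter on low counts in every pair, and 37 were tested without the filter. The median log2 fold change of the members in R vs. B ran from 0.0023 (without beef tallow pig 3) to 0.19 over the fits that left out a pig, beside 0.14 with all pigs. The median of the cytosolic chaperones in B vs. C was -0.056 with DESeq2 and -0.034 without the filter on low counts, beside -0.22, and both of these include genes with few reads. Leaving out beef tallow pig 3, leaving out PSMA7 or PSME3IP1 and the lists without that pig were chosen after the data were seen.

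DESeq2 called 188, 93 and 53 genes in all in the same pairs, of 5808, 3565 and 2156 with an adjusted p, where edgeR called 70, 9 and 4. Without the filter on low counts, edgeR called 190, 82 and 22. Replicate numbers gave little pairing of the pigs: deviations from the diet means of pigs with the same number correlated at -0.111 to 0.14 in R vs. B, -0.00689 to 0.102 in R vs. C and -0.248 to 0.094 in B vs. C. The pig with the same number was the best match for 0, 3 and 1 of 5 pigs in these pairs. With the replicate block, 0 members were called in each pair, with medians of 0.09, 0.02 and -0.07, and 35, 8 and 4 genes were called over all genes. Of the called chaperones, partners and markers, 8 results with all pigs and 52 with a pig left out fell below the threshold in the same direction. HSPA5 passed it in group C against R and C against B with DESeq2, and in the former also without the filter and without coconut oil pig 3. The search for promoter motifs was not run.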
